A study of Mus musculus with 7 samples.

Results

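The cells described here were mouse bone marrow cells that held transcripts of Dntt, a lymphoid gene, and of the neutrophil granule genes Prtn3 and Ctsg at the same time. They were chosen by UMI counts alone (a UMI, or unique molecular identifier, marks 1 captured RNA molecule). A member had at least 2 UMIs of Dntt, at least 3 UMIs of Prtn3 and Ctsg summed, no UMI of Il7r or Rag1, and at most 2 UMIs of Elane. Of 24430 cells that passed the cell filter, 1976 were members. All came from LSK cells, which are marrow cells without lineage markers that carry Sca-1 and cKit on the surface and contain the stem cells and multipotent progenitors. The mice were of mixed 129S1/C57Bl/6 strain, and their age is not given in the sources used here. The 3 libraries labelled B4galt1 KO came from mice written as B4-/-, described as full knockouts, and 4 libraries were labelled WT. B4galt1 encodes a galactosyltransferase that adds galactose to glycoproteins, and the series title ties it to Muc13, a cell surface mucin.

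Lymphoid and myeloid fates separate among the multipotent progenitors of this compartment. Dntt encodes terminal transferase, which adds untemplated nucleotides to rearranging antigen receptor genes and is among the first lymphoid genes to be transcribed, before Rag1 and before the interleukin 7 receptor gene Il7r. Prtn3 (proteinase 3), Ctsg (cathepsin G) and Elane (neutrophil elastase) encode serine proteases of the primary granules and are transcribed in granulocyte and monocyte progenitors together with Mpo (myeloperoxidase). Low-level transcription of genes of more than one lineage in a single progenitor is known as multilineage priming.

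On the GRCm38 mouse genome Dntt lies at chr19:41029275-41059525 on the plus strand and Ctsg at chr14:56099881-56102574 on the minus strand. Prtn3 (chr10:79874476-79883174, plus strand) and Elane (chr10:79886247-79888215, plus strand) are close neighbours, and Mpo lies at chr11:87793581-87804413 on the plus strand. The 300 bases around the RefSeq start site of each gene (250 before it and 50 after it, GRCm38.p6, gene strand) were searched on both strands for AGGAAGT, a core sequence bound by ETS family factors such as PU.1, and its reverse complement ACTTCCT. The promoters are shown because the rule joins genes of different lineages. The capitals mark the match.
Prtn3, chr10:79879417-79879716, plus strand: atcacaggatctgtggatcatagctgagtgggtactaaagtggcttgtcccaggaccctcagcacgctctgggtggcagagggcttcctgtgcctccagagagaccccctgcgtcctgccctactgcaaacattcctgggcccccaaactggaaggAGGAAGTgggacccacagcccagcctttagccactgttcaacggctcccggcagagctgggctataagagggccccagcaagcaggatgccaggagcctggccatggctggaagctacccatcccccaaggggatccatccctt
Ctsg, chr14:56102525-56102824, minus strand: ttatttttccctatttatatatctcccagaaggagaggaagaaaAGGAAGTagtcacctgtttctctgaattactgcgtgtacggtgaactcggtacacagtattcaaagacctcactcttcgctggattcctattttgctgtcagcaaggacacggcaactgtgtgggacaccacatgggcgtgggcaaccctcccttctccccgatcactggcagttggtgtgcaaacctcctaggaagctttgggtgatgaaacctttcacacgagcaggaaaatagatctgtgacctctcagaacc
Mpo, chr11:87793534-87793833, plus strand: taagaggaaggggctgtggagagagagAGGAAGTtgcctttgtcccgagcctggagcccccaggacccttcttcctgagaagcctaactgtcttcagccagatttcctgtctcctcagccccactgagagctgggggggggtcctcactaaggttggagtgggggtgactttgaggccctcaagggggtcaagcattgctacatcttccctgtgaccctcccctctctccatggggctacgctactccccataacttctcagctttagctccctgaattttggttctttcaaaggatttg
Elane, chr10:79886062-79886361, plus strand: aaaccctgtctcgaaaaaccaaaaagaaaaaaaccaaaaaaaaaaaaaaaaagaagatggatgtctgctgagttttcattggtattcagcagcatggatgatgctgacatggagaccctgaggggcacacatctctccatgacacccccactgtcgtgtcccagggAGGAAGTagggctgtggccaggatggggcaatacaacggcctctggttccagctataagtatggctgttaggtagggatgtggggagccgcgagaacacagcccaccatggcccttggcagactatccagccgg
Dntt, chr19:41029025-41029324, plus strand: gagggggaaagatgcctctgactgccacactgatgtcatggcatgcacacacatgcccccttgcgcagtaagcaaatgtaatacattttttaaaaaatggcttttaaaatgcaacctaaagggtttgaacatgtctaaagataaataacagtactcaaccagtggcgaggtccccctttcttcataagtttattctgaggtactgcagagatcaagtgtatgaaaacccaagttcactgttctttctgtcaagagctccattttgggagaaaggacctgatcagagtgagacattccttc

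Each of the 4 granule gene promoters held 1 match, starting 94 bases before the start site in Prtn3, 206 in Ctsg, 223 in Mpo and 84 in Elane. The Dntt window had no such letters. The sequence occurred in 3072 of 32851 promoters of this length (9.35%). A match is a description of the letters and not evidence of binding.

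The libraries held 14970791 to 89747946 UMIs in total, with a median of 8046 to 11083.5 per kept cell. The opening bases of the barcodes fell into 2 lists. Knockout replicate 3 and WT replicate 4 shared one (list B) and the other 5 libraries shared another (list A). In list B 96.2% and 98.3% of barcodes passed the cell filter, against 32.4% to 49.9% in list A. B4galt1 in knockout-labelled members was not called different from WT members (log2 difference -0.17, 48, 51.7 and 31.2 CPM, or counts per 1000000, against 54.5, 52.5, 45.3 and 41.6 in WT). In list B it was 31.2 against 41.6. A 3′ tag that lies outside a deleted stretch does not check a genotype, so the libraries are called knockout-labelled. Nothing in the labels says that libraries came from separate animals, so p-values measure the spread between these libraries.

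Members were found in all 7 libraries. They numbered 144, 111 and 815 in knockout-labelled replicates 1, 2 and 3, and 71, 51, 88 and 696 in WT replicates 1 to 4. Dntt itself was modest in most members, with a median of 4 UMIs and a highest value of 117, and 462 members (23.4%) had at least 10 UMIs. Prtn3 and Ctsg together had a median of 6 UMIs and a highest value of 121, and 609 members (30.8%) had at least 10. Both proteases were detected in 1209 members (61.2%), Prtn3 alone in 717 and Ctsg alone in 50. Elane, although it neighbours Prtn3, was at 0 in 1727 members (87.4%), at 1 UMI in 214 and at 2 UMIs in 35. These values follow in part from the rule.

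The thresholds cut through continuous distributions. Inside them, 506 members had exactly 2 Dntt UMIs, 409 had exactly 3 UMIs of Prtn3 and Ctsg, and 109 were at both minimums. Outside them, 1238 cells failed only by having 1 Dntt UMI, 490 only by having 2 UMIs of Prtn3 and Ctsg, 226 only by a UMI of Il7r or Rag1, and 32 only by more than 2 UMIs of Elane. The heat maps of Dntt against Prtn3 and Ctsg show the region the rule takes.

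**Figure D1:**
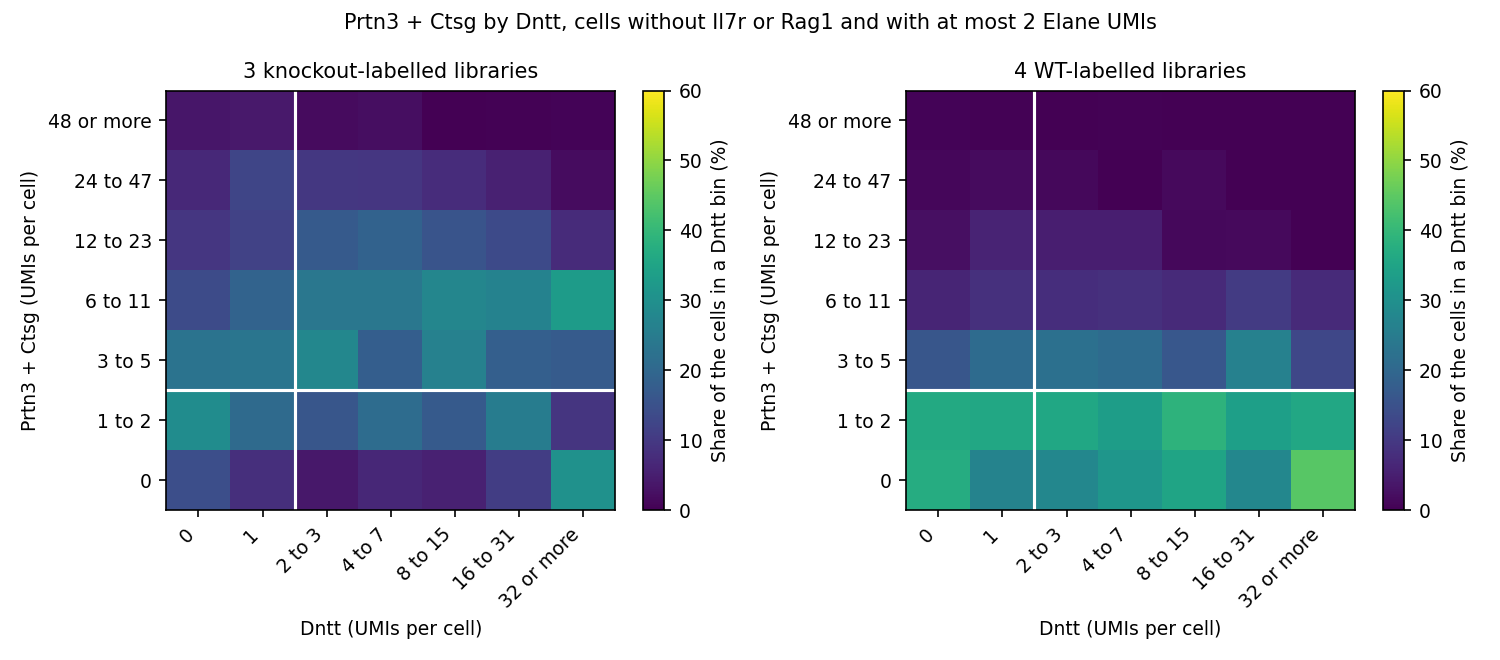
Kept cells without Il7r or Rag1 and with at most 2 Elane UMIs, by Dntt UMIs (one axis) and summed Prtn3 and Ctsg UMIs (other axis). Values are the percent of the cells of each Dntt bin, averaged over the 3 knockout-labelled and over the 4 WT libraries. Knockout-labelled replicate 2 had no cell with 32 or more Dntt UMIs and is left out of that bin. White lines mark the thresholds of 2 and 3 UMIs, and the distribution runs across both lines without a gap.

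Of the genes that the rule did not use, Mpo had a UMI in 1856 members (93.9%), the cytokine receptor gene Flt3 in 98.5% and the progenitor surface gene Cd34 in 98.6%. All kept cells, which were less deep, had a UMI of these genes in 69.1%, 70.8% and 84.2%. With every cell thinned to 3000 UMIs, Mpo was found in 74.8% of members and 51.9% of all kept cells, Flt3 in 75.5% and 47.6%, and Cd34 in 74.3% and 60.5%. Per 10000 UMIs, Mpo stood at 5.45, 8.77 and 9.43 in the knockout-labelled members and at 6.65, 7.52, 5.48 and 6.28 in the WT members. Flt3 stood at 3.93, 5.11 and 5.09 in the knockout-labelled members and at 4.25, 6.42, 5.28 and 5.12 in WT. The labels overlapped in both genes. Barcodes under 1000 UMIs had Mpo at 11.7, 2.64 and 8.56 per 10000 UMIs under the knockout label and at 2.14, 1.55, 1.35 and 8.86 in WT. These exceeded the members' level in knockout-labelled replicate 1 and WT replicate 4, and the part of free RNA in the detection of Mpo was not tested.

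The rule genes themselves differed between libraries, given here as a description. Dntt reached 3.53, 4.05 and 6.56 per 10000 UMIs in knockout-labelled members and 5.08, 4.97, 4.52 and 4.89 in WT members, with overlap. Prtn3 and Ctsg reached 9.37, 8.35 and 8.73 in knockout-labelled members and 5.27, 3.77, 3.62 and 4.70 in WT members, without overlap. Knockout-labelled replicate 1 stood apart in Elane, which was at 0 in 56.9% of its members against 88.7% to 94.6% in the other knockout-labelled libraries and 87.5% to 100% in WT.

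Among Dntt-expressing cells within the rule's Il7r, Rag1 and Elane limits, granule RNA per 10000 UMIs was lower at 16 or more than at 2 to 3 Dntt UMIs. Prtn3 and Ctsg stood at 8.19 per 10000 UMIs in cells with 2 to 3 Dntt UMIs and at 6.24 in cells with at least 16 in knockout-labelled replicate 1, at 8.37 and 3.01 in replicate 2 and at 9.43 and 4.98 in replicate 3. The same pairs ran from 3.18 to 1.70, 2.39 to 1.31, 2.39 to 1.16 and 3.32 to 2.33 in WT replicates 1 to 4. The highest bin held 10, 9 and 213 knockout-labelled cells and 27, 29, 43 and 186 WT cells. All 7 libraries had less granule RNA per 10000 UMIs in the highest bin, and at each end the knockout-labelled values lay above the WT values. The fall was not steady, as knockout-labelled replicate 1 stood at 9.06 at 4 to 7 Dntt UMIs. The share of cells with at least 3 UMIs of Prtn3 and Ctsg did not fall in every library. Between the same bins it went from 35.6% to 37.0% in WT replicate 1 and from 27.7% to 34.5% in WT replicate 2, and it fell in the others. Since Dntt and granule UMIs share each cell's total, these levels are a description without a test. Mpo was also lower at 16 or more than at 2 to 3 Dntt UMIs in 6 of 7 libraries, as from 9.89 to 7.04 in knockout-labelled replicate 3, and higher in WT replicate 4 (4.73 and 5.64).

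**Figure D2:**
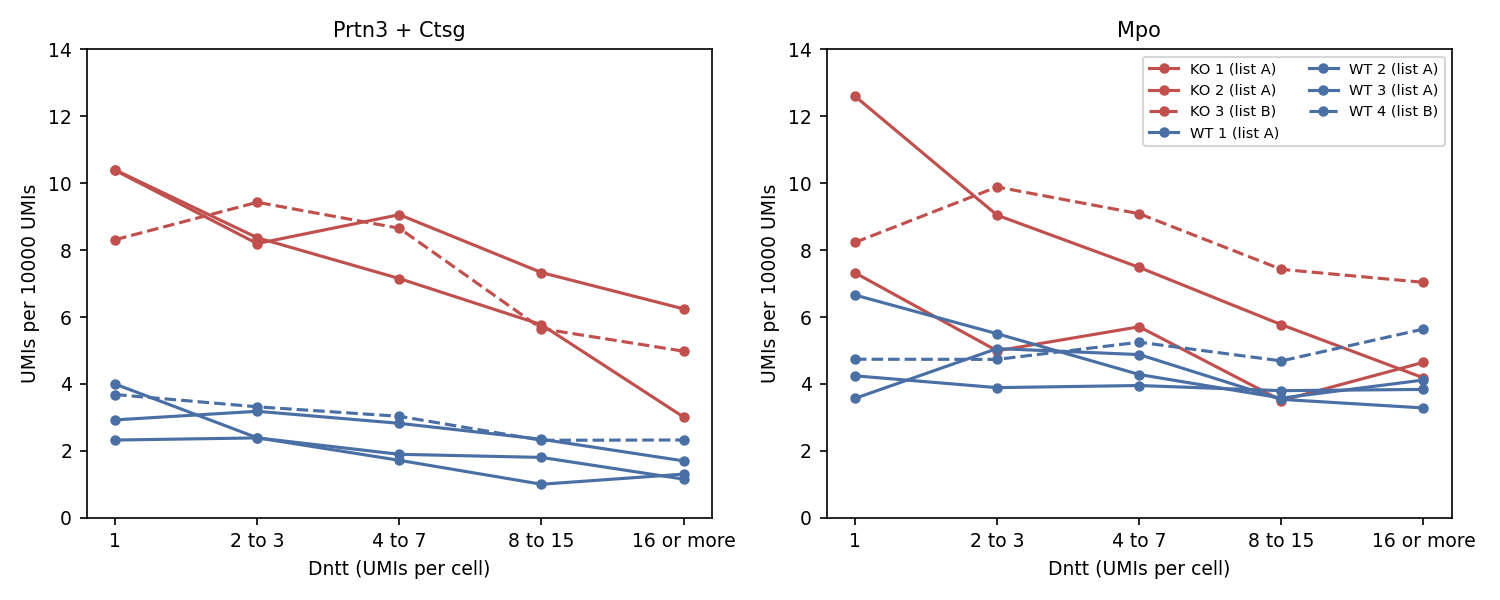
Summed Prtn3 and Ctsg (one panel) and Mpo (other panel) in UMIs per 10000, by the number of Dntt UMIs in the cell, with 1 line per library and list B libraries dashed. Only cells without Il7r or Rag1 and with at most 2 Elane UMIs are shown. Prtn3 and Ctsg were lower in every library at 16 or more than at 2 to 3 Dntt UMIs, and the knockout-labelled lines lay above the WT lines at both points.

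The first question of the design was whether such cells were more frequent under one label. Among all kept cells, members made up 4.69%, 6.43% and 11.9% of the knockout-labelled libraries and 5.71%, 4.35%, 5.87% and 7.85% of the WT libraries. The groups overlapped, and only replicate 3 of the knockout-labelled libraries stood above every WT library. The means were 7.67% ± 3.76 (SD, n = 3) and 5.94% ± 1.44 (SD, n = 4), a difference of 1.73 percentage points (exact permutation test, two-sided p = 0.514, adjusted over 3 shares 0.514). Without that replicate the difference was -0.384.

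Among cells with Dntt the picture differed. The denominator was the cells with at least 2 Dntt UMIs and within the same Il7r, Rag1 and Elane limits, 3749 in all. Members were 75.0%, 73.0% and 77.6% of them in the knockout-labelled libraries and 34.0%, 25.9%, 33.5% and 41.3% in WT, with no overlap. The means were 75.2% ± 2.30 (SD, n = 3) and 33.7% ± 6.29 (SD, n = 4), a difference of 41.6 percentage points. The exact two-sided permutation p was 0.0571, the smallest that 35 splits of 7 libraries allow under the doubling of the one-sided value, and 0.0857 adjusted over the 3 shares. Counting splits by absolute difference gives 0.0286. Within list A the difference was 42.9, and in list B, with 1 library a label, it was 36.3.

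Granule RNA in the whole library was split between the labels in the same direction. Prtn3 and Ctsg stood at 52.7, 19.6 and 11.2 UMIs per 10000 in all kept knockout-labelled cells and at 8.36, 4.74, 2.73 and 5.69 in WT. At least 3 UMIs of Prtn3 and Ctsg were found in 70.5%, 60.5% and 66.9% of all kept knockout-labelled cells and in 29.0%, 25.0%, 25.5% and 39.7% of all kept WT cells. Dntt at 2 or more UMIs went the other way, in 8.37%, 10.6% and 18.2% of knockout-labelled cells and 22.5%, 21.1%, 22.5% and 23.1% of WT cells. Dntt cells outside the rule, those with Il7r or Rag1, showed the same split. Of them 55.2%, 55.6% and 50.3% had at least 3 UMIs of Prtn3 and Ctsg under the knockout label and 19.7%, 24%, 17.3% and 14.9% under WT. The split between labels was thus also seen outside the members' gate. The part of the library-wide difference in the members' share was not tested.

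**Figure D3:**
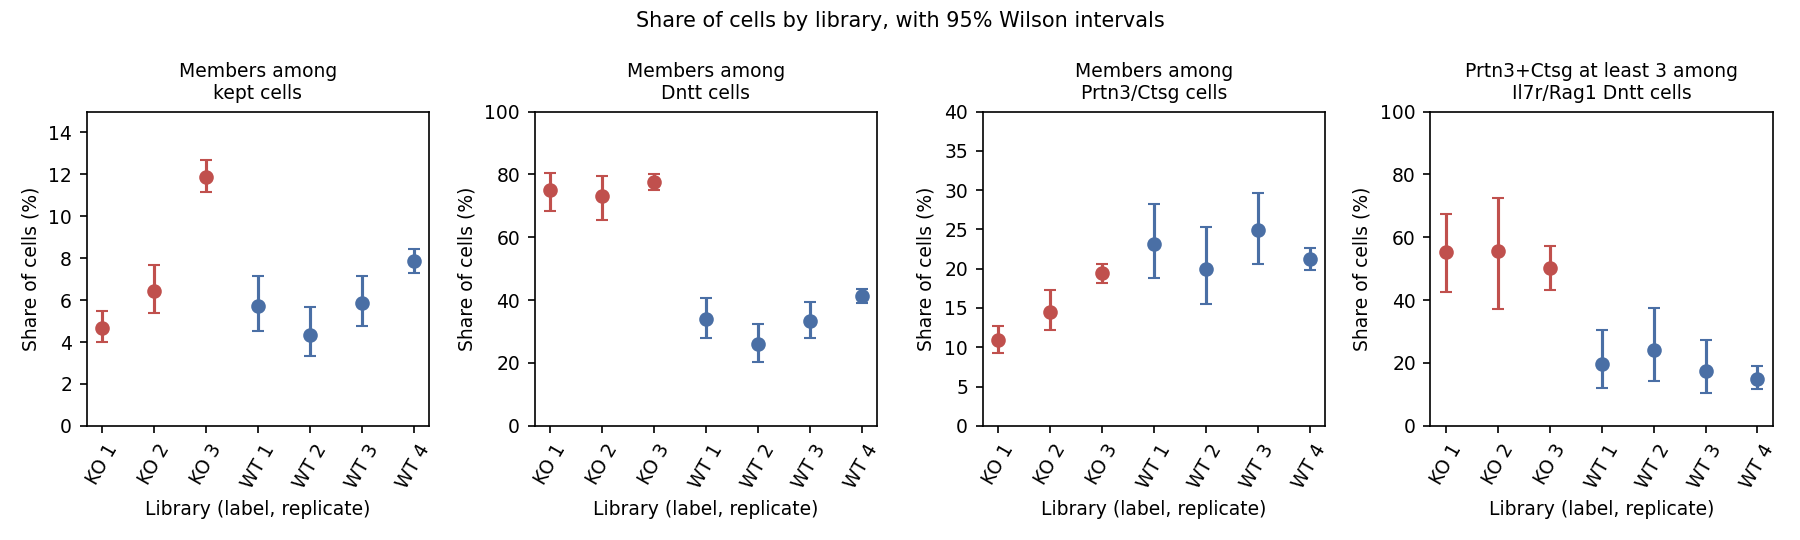
Percent of cells in each of the 7 libraries with 95% Wilson intervals, which cover counting error only: members among kept cells, members among Dntt cells, members among Prtn3 and Ctsg cells, and cells with at least 3 UMIs of Prtn3 and Ctsg among Dntt cells that hold Il7r or Rag1. The labels separate in the panels over Dntt cells (73.0% to 77.6% against 25.9% to 41.3% for members) and overlap in the panel over kept cells.

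Seen from the granule side the members were the smaller fraction under the knockout label. Of the 10488 cells with at least 3 UMIs of Prtn3 and Ctsg and within the same limits, they were 10.9%, 14.5% and 19.4% in the knockout-labelled libraries and 23.2%, 19.9%, 24.9% and 21.2% in WT. The groups did not overlap, although replicate 3 and WT replicate 2 nearly touched. The means were 14.9% ± 4.27 (SD, n = 3) and 22.3% ± 2.18 (SD, n = 4), a difference of -7.36 percentage points (exact permutation test, two-sided p = 0.0571, adjusted 0.0857). The groups overlapped when every cell was thinned to 3000 UMIs (-2.16, p = 0.343 by the same exact test), in cells of 8000 to 16000 UMIs (-4.43, exact p = 0.114), and with at least 3 Dntt and 5 Prtn3 and Ctsg UMIs (-4.93, exact p = 0.171). Within list A the difference was -9.95, and in list B it was -1.82.

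Members were deeper than cells that met only one of the gene minimums of the rule. The 2 comparison classes had the same Il7r, Rag1 and Elane limits. Dntt-only cells had at least 2 Dntt UMIs and none of Prtn3 or Ctsg (696 cells), and granule-only cells had no Dntt and at least 3 UMIs of Prtn3 and Ctsg (7274 cells). Of the cells without Dntt and within these limits, 57.6%, 49.9% and 62.1% met that granule minimum under the knockout label. In WT 24.6%, 21.1%, 22.8% and 37.7% met it. The granule-only class may thus hold cells of several kinds. The median member had 13378.5 UMIs, against 7841 in Dntt-only and 10141.5 in granule-only cells. The ratio to Dntt-only cells was 1.52 to 2.21 over the 7 libraries and the ratio to granule-only cells 1.08 to 1.39. A rule that asks for UMIs of several genes favours deep cells, and so does a pair of cells under 1 barcode. A member's median was 63.2% to 82.9% of the sum of the medians of both classes in its library. At 3000 UMIs per cell the median number of detected genes was 1487 in members, 1497 in Dntt-only and 1501 in granule-only cells.

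Doublets, in which 1 barcode holds 2 cells, were examined by counts. At an assumed 0.8% doublets per 1000 barcodes, 62.9 barcodes pairing a Dntt cell with a granule cell would be expected, 3.18% of the members (0.833% to 6.11% per library). That rate is assumed, not measured here. Scrublet, a doublet caller, marked 0 to 5 barcodes per library and did not work. Its highest scores, taken at the assumed rate, held 230 members (11.6%) against 5.52% of all kept cells, and 187 members (9.46%) lay above the 95th percentile of UMIs of their library. RNA of other lineages was counted as well. The platelet gene Pf4 reached 3 UMIs in 18 members (0.911%) and in 695 of all kept cells (2.84%). In list A libraries at most 0.6% of kept cells reached it, so a low share in members says little there. The erythroid genes Klf1 and Car1 reached 5 in 2 members, and the B cell gene Cd79a reached 3 in 2 members. Without the highest scores, and without the deepest cells, the share of members among Dntt cells did not overlap between labels. As the caller did not work, these removals cannot show which members were doublets. The part of doublets in this share was not tested.

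Free RNA, which enters droplets from lysed cells, was not measured directly. Barcodes under 1000 UMIs and cells of other types are described instead. Such barcodes may hold cells with little RNA rather than free RNA. In list B, where 96.2% and 98.3% of barcodes passed the cell filter, few of them were left. In the low barcodes Prtn3 and Ctsg stood at 10.6, 1.45 and 9.79 per 10000 UMIs under the knockout label and at 1.00, 0.557, 0.684 and 4.52 in WT. Replicates 1 and 3 of the knockout label were thus at or above the level of their own members (9.37 and 8.73), replicate 2 was well under it, and WT replicate 4 was close to it (4.70). Cells with at least 5 UMIs of Pf4 were taken as cells of another type, and whether they transcribe granule genes was not tested. In knockout-labelled replicate 3, 40 of 200 had at least 3 UMIs of Prtn3 and Ctsg (20%, median 13381.5 UMIs). In WT replicate 4 it was 27 of 138 (19.6%, median 14351.5). The same Pf4 cells had 2 or more Dntt UMIs in 4.5% and 10.1%. List A libraries held only 0 to 10 such cells each. Of the Dntt cells in those 2 libraries 77.6% and 41.3% had the granule minimum, and the shares over all kept cells are given above. The part of free RNA in the difference between labels was not tested.

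Elane, limited by the rule, is given as a description. It amounted to 3.73, 0.658 and 1.01 UMIs per 100 UMIs of Prtn3 and Ctsg in knockout-labelled members and to 0.175, 0.299, 0 and 2.06 in WT members. With the 32 cells that failed only by Elane added back, the values were 11, 4.32 and 5.31, and 0.175, 0.299, 0 and 29.7. The rule sets a minimum on Prtn3 and Ctsg and a limit on Elane, so the ratio bears on no source of the RNA.

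Against Dntt-only cells of the same library, members had more RNA of most primary granule genes tested and less of most early lymphoid genes. Counts were summed per library and class, and edgeR's quasi-likelihood test with library as a block was run without the 6 genes of the rule. It called 1134 of 9034 genes (12.6%) at an adjusted p under 0.05, 607 higher (6.72%) and 527 lower (5.83%) in members. Mpo was at 554, 844 and 1120.4 CPM in knockout-labelled members and 659, 713, 553 and 729 in WT members. In Dntt-only cells it was at 230.3, 110.3 and 329 CPM, and 206, 221, 197 and 364. Every member value exceeded every Dntt-only value, a log2 difference of 1.54 ± 0.10 (SE, edgeR adjusted p = 7.3e-20).

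Of 10 tested primary granule genes, 7 were higher and none lower (median log2 difference 0.50, against 0.00 over all genes tested). Besides Mpo they included the chaperone gene Calr (0.67 ± 0.09), Plac8 (0.54 ± 0.09) and Nkg7 (0.63 ± 0.11), all at edgeR adjusted p under the threshold. Of 10 myeloid transcription factor and receptor genes, 1 rose, Irf8, which directs monocyte and dendritic fates (0.95 ± 0.12). The chemokine gene Ccl9 rose by 1.17 ± 0.12 and Muc13 by 1.06 ± 0.13 (edgeR adjusted p = 4.8e-10). Muc13 was at 110.5, 110.4 and 166 CPM in knockout-labelled members against 67.7, 110.3 and 82.2 in their Dntt-only cells, and at 68.5, 88.9, 51.0 and 95.6 in WT members against 32.7, 44.8, 31.9 and 35. Knockout-labelled replicate 2, with 10 Dntt-only cells, was level, and the other 6 libraries were higher in members.

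Early lymphoid genes fell as a list, with 16 of 18 lower and 1 higher (median -0.57). The list was drawn up with earlier results of these cells known. Lax1, an adaptor of lymphocyte receptor signalling, differed by -1.37 ± 0.14, Blnk, the adaptor of B cell receptor signalling, by -2.01 ± 0.26, and the transcription factor gene Bcl11a by -0.65 ± 0.09. Arpp21, a gene of early B and T cell precursors, differed by -1.81 ± 0.36 (edgeR adjusted p = 0.021, past the threshold in 11 of 17 alternatives), from 13.3, 11.9 and 25.2 CPM in knockout-labelled members and 62.1, 122, 54.3 and 40.7 in WT members to 352, 152, 111 and 180, 211, 207 and 127 in Dntt-only cells. The 2 classes did not overlap within a label, while WT members held more Arpp21 than knockout-labelled ones. Mn1 (-1.49 ± 0.15), Cmah (-1.38 ± 0.25), Arhgef3 (-1.28 ± 0.11), the lymphotoxin gene Ltb (-1.15 ± 0.14) and Klf3 (-1.15 ± 0.14) were the other large falls. Of 5 plasmacytoid dendritic cell genes 4 fell (median -0.36), among them Ccr9 (-4.17 ± 0.28) and Cox6a2, and of 11 immediate early genes 4 fell (Fos, Junb, Zfp36 and Btg2; median -0.34). In cells of 8000 to 16000 UMIs none of the immediate early genes passed, with Btg2 at -0.15, Junb at -0.06, Zfp36 at -0.09 and Fos at -0.23. Only 1.04% of all genes tested were called lower there, in 5 libraries.

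Against granule-only cells the lymphoid side stood out instead. The test called 2162 of 11133 genes (19.4%), 1141 higher (10.2%) and 1021 lower (9.17%) in members. Flt3 was at 390.5, 486 and 593 CPM in knockout-labelled members and 416, 605, 523 and 582 in WT members, against 199, 195 and 217, and 194, 256, 248 and 283 in granule-only cells. The classes did not overlap, a log2 difference of 1.18 ± 0.05 (edgeR adjusted p = 1.2e-13). Ighm, the immunoglobulin mu chain gene, rose by 1.97 ± 0.18, from 57.99 to 93.4 CPM under the knockout label and 36.8 to 83.4 under WT in granule-only cells to 194 to 340.2 and 216 to 331 in members.

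Of 18 early lymphoid genes 15 were higher and 1 lower (Ltb; median 1.19, against 0.01 over all genes tested). Satb1, a chromatin organiser of lymphoid progenitors, rose by 1.40 ± 0.04, Notch1, the receptor gene of T cell commitment, by 1.30 ± 0.09, and Arpp21 by 3.23 ± 0.12. Mef2c, a transcription factor gene of lymphoid progenitors, rose by 0.71 ± 0.04, and Blnk by 2.31 ± 0.23. Irf8 was also higher here (1.05 ± 0.23, edgeR adjusted p = 0.023), so it stood above both comparison classes. It passed here in 12 of 17 alternatives. The myeloid lectin receptor gene Clec12a was higher as well (1.42 ± 0.29), and its rise over Dntt-only cells (0.70 ± 0.13) did not pass in cells of 8000 to 16000 UMIs (0.26, edgeR adjusted p = 0.71). Plasmacytoid dendritic cell genes were higher in 3 of 4 (median 0.38), and Tcf4, their main regulator, rose by 0.60.

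Stem cell and megakaryocyte and erythroid genes were lower in members than in granule-only cells. The granule-only class may hold cells of several kinds, and the part of its make-up in these differences was not tested. Of 19 stem cell genes 15 were lower and 3 higher (median -0.75), with Procr at -1.05, and Cd34 among those that rose (0.23 ± 0.04). Of 7 megakaryocyte and erythroid genes 6 were lower (median -1.08), including Itga2b, the platelet integrin gene (-1.75), and the transcription factor gene Gata2 (-1.32). All 3 tested basophil and mast cell genes were lower, among them Cpa3 (-2.96). Dach1 was at 93.7, 204 and 94.1 CPM in knockout-labelled members and 107, 106, 157 and 101 in WT members, against 423, 739 and 319, and 559.5, 816, 761 and 268 in granule-only cells (-2.0 ± 0.17, edgeR adjusted p = 0.00028), without overlap. Muc13 was lower than in granule-only cells (-0.72 ± 0.12, edgeR adjusted p = 0.0056) and so stood between the 2 comparison classes.

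The granule list was split in this comparison. Of 13 primary granule genes 5 were higher and 7 lower (median -0.20), with Prss57 (0.59) and Plac8 (0.38, past the threshold in 10 of 17 alternatives) higher and Calr (-0.23) and Ms4a3 (-2.01 ± 0.23) lower. Mpo was at 542, 834 and 1099.8 CPM in knockout-labelled members against 915, 1887 and 1032 in granule-only cells, and at 651, 708, 543 and 713 against 990.1, 801, 561 and 547 in WT. The classes overlapped, and the log2 difference of -0.31 ± 0.21 did not pass (edgeR adjusted p = 0.40). Without knockout-labelled replicate 3 the list had 1 member higher and 6 lower. Calls over all genes also fell in that run, from 2162 to 1339. Both tested neutrophil secondary granule genes were lower. One, S100a8, was at 908, 339 and 395 CPM in granule-only cells of knockout-labelled replicate 1 and of WT replicates 2 and 3, and at 1.61 to 7.66 in the other 4 libraries. In members it was at 0.695 to 32 (-4.29 ± 0.53, edgeR adjusted p = 0.0018).

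Other lists moved less in one or both comparisons. Against Dntt-only cells, 5 of 11 monocyte and dendritic cell genes were higher and 2 lower (median 0.20), with F13a1 at 2.69 ± 0.34 and Cd74 at -1.59. Against granule-only cells 3 of 12 were higher and 5 lower (median -0.13), with F13a1 at -1.07, which passed in 6 of 17 alternatives. Of 15 stem cell genes 2 were higher and 4 lower than in Dntt-only cells (median -0.06). Of 7 tested genes of the galactosyltransferase family list, which holds Muc13, 2 were higher than in Dntt-only cells (Muc13 and B4galt4) and 1 was lower than in granule-only cells (Muc13). Of 3 megakaryocyte and erythroid genes 1 was higher than in Dntt-only cells (Hbb-bt). Of 11 myeloid transcription factor and receptor genes 3 were higher and 2 lower than in granule-only cells (median -0.03), and of 11 immediate early genes 1 was higher and 1 lower. Among B cell genes 1 of 2 was lower than in Dntt-only cells, while 1 was higher and 1 lower than in granule-only cells. Among T, NK and innate lymphoid genes the 1 tested did not pass against Dntt-only cells, and of 3 tested against granule-only cells 1 was higher and 1 lower. No secondary granule, basophil or mast cell gene passed the filter on low counts in the comparison with Dntt-only cells. B4galt1 itself passed neither test (-0.19, edgeR adjusted p = 0.43, and 0.03, adjusted p = 0.85).

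Genes of cell division were higher in members than in both classes, and this difference moved with depth. Of 39 G2/M phase genes 33 were higher than in Dntt-only cells (median 0.77) and 33 of 40 were higher than in granule-only cells (median 0.31), with none lower. Among them Birc5 (survivin) rose by 1.03 ± 0.12 over Dntt-only cells, and outside the list so did the cyclin genes Ccnb1 (1.21 ± 0.15) and Ccna2 (1.07 ± 0.16). Of 41 S phase genes 20 and 10 were higher (medians 0.33 and 0.10). In cells of 8000 to 16000 UMIs, an alternative chosen after seeing the data, none of 35 G2/M genes was higher than in Dntt-only cells and 1 was lower (median -0.17), and 1 of 39 was higher than in granule-only cells (median 0.00). Few genes of any kind were called against Dntt-only cells there, 0.646% higher and 1.04% lower in 5 libraries, so the absence of calls says little by itself. Against granule-only cells 6.37% of all genes were higher and 5.06% lower. Birc5 then differed from Dntt-only cells by 0.12 and Ccnb1 by 0.05. Thinning every cell to 3000 UMIs after gating left 27 of 30 and 31 of 39 G2/M genes higher, against 5.53% and 7.11% of all genes tested (9.61% and 13.6% called in either direction, 4.07% and 6.46% lower). The part of cell size or of doublets in this difference was not tested.

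Some lineage genes still passed in cells of like depth and others did not. In the window of 8000 to 16000 UMIs, Mpo stood 1.31 above Dntt-only cells, Ccl9 1.41, Muc13 1.41, Irf8 0.94 and Calr 0.46, while Arpp21 stood at -1.60 and Cmah at -1.32, all past the edgeR threshold. Ltb (-0.55), Satb1 (-0.14), Notch1 (-0.30), Cd74 (-0.95), Runx2 (-0.06) and Clec12a (0.26) no longer passed. Of the lists, 4 of 10 primary granule genes were higher (median 0.29) and 9 of 16 early lymphoid genes lower, 1 being higher (median -0.42). Only 5 libraries had enough Dntt-only cells there, and 112 of 6661 genes were called (1.68%; 0.646% higher and 1.04% lower), 105 of them among the 1134. Against granule-only cells 14 of 16 early lymphoid genes were higher (median 1.14) and 11 of 17 stem cell genes lower, 3 being higher (median -0.38), where 1100 of 9623 genes were called (11.4%; 6.37% higher and 5.06% lower). The library block carried many of the calls, since 17 and 72 genes passed without it.

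**Figure D4:**
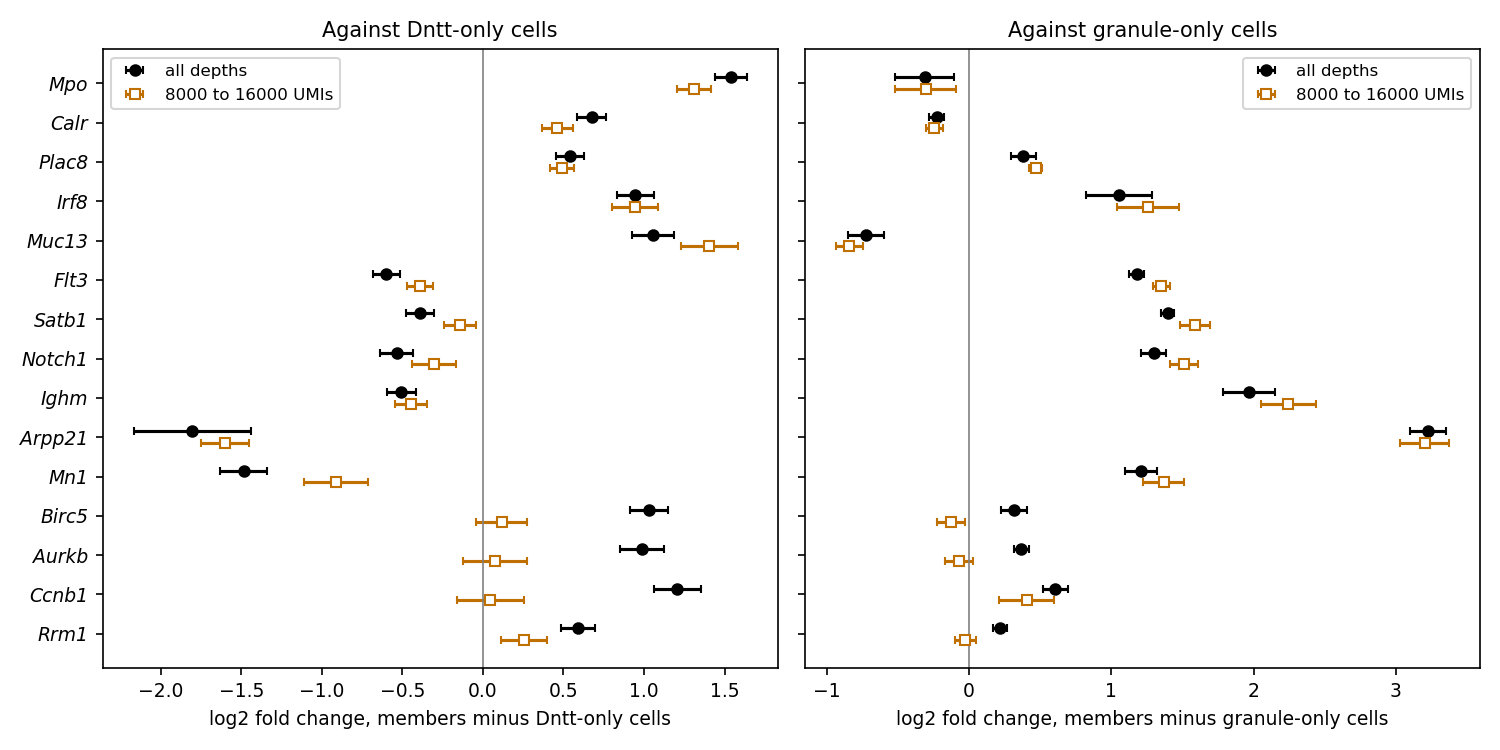
Log2 differences with SE for named genes, members against Dntt-only cells and members against granule-only cells, in cells of all depths and in cells of 8000 to 16000 UMIs. Against Dntt-only cells Mpo (1.54 and 1.31) keeps its difference in the window, while the division gene Birc5 (1.03 and 0.12) does not. Lineage genes are mixed there, as Satb1 (-0.39 and -0.14) and Notch1 (-0.30 in the window) no longer pass.

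The last comparison set the 2 labels against each other within the members, with barcode list as a covariate. It called 8 of 10015 genes (0.0799%), 7 higher (0.0699%) and 1 lower (0.00999%) in knockout-labelled members by edgeR. An unadjusted p under 0.05 was found in 485 of the 10015, slightly fewer than evenly spread p-values would give. Tox, a transcription factor gene of lymphoid development, was at 51.3, 59.4 and 45.1 CPM in knockout-labelled members and 113.5, 156, 140.3 and 108 in WT members. The labels did not overlap, a log2 difference of -1.29 ± 0.15 (edgeR adjusted p = 0.0006), and Tox passed in 15 of 17 alternatives. Rab44, a GTPase gene, was at 81.8, 81.4 and 51.5 against 50.05, 50.4, 34.9 and 17.6 CPM (1.12 ± 0.18, edgeR adjusted p = 0.018). The galectin gene Lgals1 was at 187, 112 and 225 against 74.2, 36.7, 60.8 and 109.7 CPM (1.26 ± 0.21, edgeR adjusted p = 0.040), and Ap3s1, of the adaptor complex that sorts cargo to lysosome-related organelles, at 154, 162 and 127 against 103, 81.9, 62.1 and 73.3 CPM (0.90 ± 0.15, edgeR adjusted p = 0.032). Labels that do not overlap were a condition for naming these 4 genes, so this adds nothing to the calls. The gaps were smallest in Rab44 and Lgals1. Both of these and Ap3s1 passed in only 9 or 10 of the 17 alternatives.

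The other 4 called genes, named after their values were seen, were Gm15987 (1.82), the secreted protease inhibitor gene Slpi (1.34), Ccl9 (0.85) and Gria3 (0.81), all higher under the knockout label. They passed in 16, 12, 9 and 7 of the 17 alternatives. None of the 15 gene lists had a called member. Muc13 was at 108, 108 and 161 CPM in knockout-labelled members and 67.0, 87.1, 49.8 and 93.2 in WT members, without overlap, but its difference of 0.73 ± 0.16 did not pass (edgeR adjusted p = 0.12). Mpo differed by 0.27 ± 0.18 with overlapping labels. The labels did not overlap in 198 of the 10015 genes (1.98%). Granule RNA was higher in the knockout-labelled libraries as a whole, and its part in these differences was not tested.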

How the data were processed

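The deposited values were UMI counts, 1 sparse matrix for each of 7 libraries. Their headers name Cell Ranger 7.0.0. The submitters' processing notes also name Seurat 4.4.0 and mm10, and the labels' protocols the 10x Single Cell 3′ v2 kit. The members and gene lists were chosen with earlier results of these data known.

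Cells had at least 1000 UMIs, 500 genes and at most 10% mitochondrial UMIs. Groups were the labels. Shares were compared over libraries by exact permutation (scipy 1.17.1). Counts were summed per library and class (at least 10 cells) and tested with edgeR 4.0.16 (TMM, filterByExpr, quasi-likelihood, Benjamini-Hochberg). DESeq2 1.42.0 was an alternative. The test was checked on simulated data. Intervals cover counting error only.

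Named genes were up to 4 per list by smallest p over both class comparisons, the 10 largest rises and 10 largest falls with mean CPM of at least 50 and 1 direction in every library (labels not overlapping), the rule genes, B4galt1 and Muc13. Other genes named were list members or chosen after their values were seen. Some genes within this rule are not reported here. Doublets were kept. Gene positions came from GENCODE (GRCm38) and promoters from RefSeq. The 15 lists covered 249 genes.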

Additional observations from a re-analysis of the deposited data

How the results depend on the processing

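The share of members among Dntt cells did not overlap between labels in any alternative run (difference 39.0 to 44.1 percentage points without 1 library, 15 after thinning to 3000 UMIs). The difference over all kept cells ran from -0.384 (without knockout-labelled replicate 3, a reversal) to 3.22. Against Dntt-only cells, 733 genes were called with DESeq2, 112 in cells of 8000 to 16000 UMIs, 408 after thinning, 17 without the library block and 710 to 1084 without 1 library (fewest without WT replicate 3). Against granule-only cells the counts were 1172 with at least 3 Dntt and 5 Prtn3 and Ctsg UMIs, 1100 in the depth window, 1063 after thinning, 72 without the block and 1339 to 2284 without 1 library (fewest without knockout-labelled replicate 3). Between labels, 28 genes were called with DESeq2, 101 with no gene filter, 13 without the highest Scrublet scores, 5 without the deepest cells, 3 under the stricter rule, 0 without the barcode list (edgeR), and 3 to 25 without 1 library (3 without WT replicate 3, 25 without knockout-labelled replicate 2, 17 without replicate 1). Adding the replicate number as a block gave 58 genes, 6 of them shared. With that block Mpo between labels was -0.0082. Whether equal numbers pair the libraries is not known. Correlations of same-numbered deviations from the label means were 0.314, 0.635 and -0.423. The label means mix both barcode lists, and knockout-labelled replicate 3 and WT replicate 4, both of list B, reached 0.907. These correlations therefore cannot decide on pairing. In the depth window Hmmr (-0.45), Cdca8 (-0.11) and B4galt1 (0.0323) reversed against Dntt-only cells, and Rrm1 (-0.0252), Aurkb (-0.0705), Tubb4b (-0.15), Birc5 (-0.13) and B4galt1 (-0.00403) against granule-only cells. B4galt1 there was also -0.0237 after thinning, -0.0179 without the block and -0.0174 to 0.0517 without 1 library. The cause of these changes was not tested. Few Dntt-only cells in knockout-labelled replicates 1 and 2 (11 and 10) limit that comparison.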

Other observations

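The balance of the 2 granule proteases is given as a description, since the rule used their sum. Ctsg amounted to 125, 77.5 and 68.2 UMIs per 100 UMIs of Prtn3 in knockout-labelled members and to 156, 118, 107 and 53.5 in WT members. In all kept cells the values were 90.7, 71.0 and 61.6, and 86.6, 71.4, 65.6 and 54.2. Members had the higher ratio in 6 of 7 libraries, and WT replicate 4 was level. Mpo amounted to 58.2, 105 and 108 UMIs per 100 of Prtn3 and Ctsg in knockout-labelled members and to 126, 199, 152 and 134 in WT members, without overlap. All kept cells had 60.2, 125 and 94.6, and 107, 155, 138 and 102, so the labels overlapped there.

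Barcode sequences were rarely shared. Over the 7 libraries, 80 sequences occurred as kept cells in more than 1 library, and 4 as members in more than 1.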
